A study of Heterocephalus glaber and Mus musculus with 9 samples.

Results

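Hyaluronan is made, cut and bound by a small set of genes, and 10 of them were followed here in the spleen of naked mole-rats (NM-Rs) and mice. They are the synthases Has1, Has2 and Has3, the degrading proteins Hyal1, Hyal2 and Cemip, and the receptors Cd44, Hmmr, Lyve1 and Stab2. They were chosen by name, ignoring case, and 9 of the 10 have a row among the 12946 genes of the table. Has3 is not listed. The study sequenced spleen RNA from 3 groups of 3 animals, with 1 library per animal, to ask what distinguishes small from enlarged NM-R spleens and both from mouse spleens. The mice were untreated wild-type C57Bl/6N males of 2 months. The NM-Rs with small spleens (ssNM-R) were the males numbered 2, 3 and 6, aged 30, 26 and 23 months. The NM-Rs with enlarged spleens (lsNM-R) were numbers 1, 4 and 5, aged 24, 29 and 23 months, of which number 4 was the female and the other two were males. All NM-Rs were healthy and untreated, and breeders were not sampled. NM-Rs and mice differed in species, age, housing, genome and gene annotation at once, so these cannot be told apart in any comparison of NM-R with mouse. The animals are separate, and p-values measure the spread between them.

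Values are read counts per gene that the authors divided by 1 size factor per library, called normalised counts below. The libraries held between 7815326 and 18387599 reads recovered from these values (mice 10441982 to 11180912). Among NM-Rs, ssNM-R 2, ssNM-R 3 and lsNM-R 1 were shallower than the mice, and the other three libraries were deeper. The 2 NM-R spleens with the highest summed level of 6 liver genes were ssNM-R 6 with 2818 and lsNM-R 5 with 908 normalised counts, against 124 to 362 in the other NM-R spleens and 135 to 308 in mice. Alb made up 2173 and 694 of these 2 sums. Cyp2e1, of the same list, had 0 and 1.25 in these 2 spleens, against 15.1 to 38.8 in mice. By the test below, 2 of the 6 genes were called higher in NM-Rs than in mice, 1 lower and 3 not, beside 39.7% of all genes higher and 38.8% lower. B cell markers were found in all spleens. Their sum over 7 genes was 48447 to 50086 normalised counts in mice and lower in all NM-Rs, at 2221 to 5715. Groups were compared by limma on log2(normalised count + 1) with Benjamini-Hochberg adjustment over all genes, and a gene is called at an adjusted p under 0.05. Fold changes are ratios of mean normalised counts, errors are SD with n = 3 per group or n = 6 for all NM-Rs, and log2 differences carry a standard error (SE) or a 95% confidence interval.

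Hyaluronan is a long unbranched sugar polymer that synthases in the plasma membrane extrude into the space around the cell. Hyaluronidases and the secreted depolymerising protein Cemip cut it, lysosomal enzymes finish its breakdown, and sinusoidal endothelium takes up what reaches blood and lymph. NM-Rs are known for tissues rich in very long hyaluronan, and the spleen contains sinusoids, leukocytes and stroma that all meet this polymer.

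In NM-R spleens, Has1, Hmmr and Lyve1 were higher than in mice, and Hyal1, Cd44 and Stab2 were lower. Has2, Hyal2 and Cemip did not pass the test. Lyve1 had a mean 8.40-fold that of mice, and Stab2 had a mean in mice 3.90-fold that of NM-Rs. Thus 3 of 9 members were called higher and 3 lower in NM-Rs, set against 78.5% of all genes called (39.7% higher and 38.8% lower). The ranges of the 6 NM-R and 3 mouse spleens did not overlap for 5 members, against 72.6% of all genes. The median log2 difference of the 9 members was -0.10, and that of all genes was 0.0097. Of the 9 members, 7 had a mean of at least 10 normalised counts over the 9 spleens, and the other two were the synthases Has1 and Has2. These values are bulk measurements, in which fewer cells of a type and less RNA per cell cannot be told apart.

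**Figure D1:**
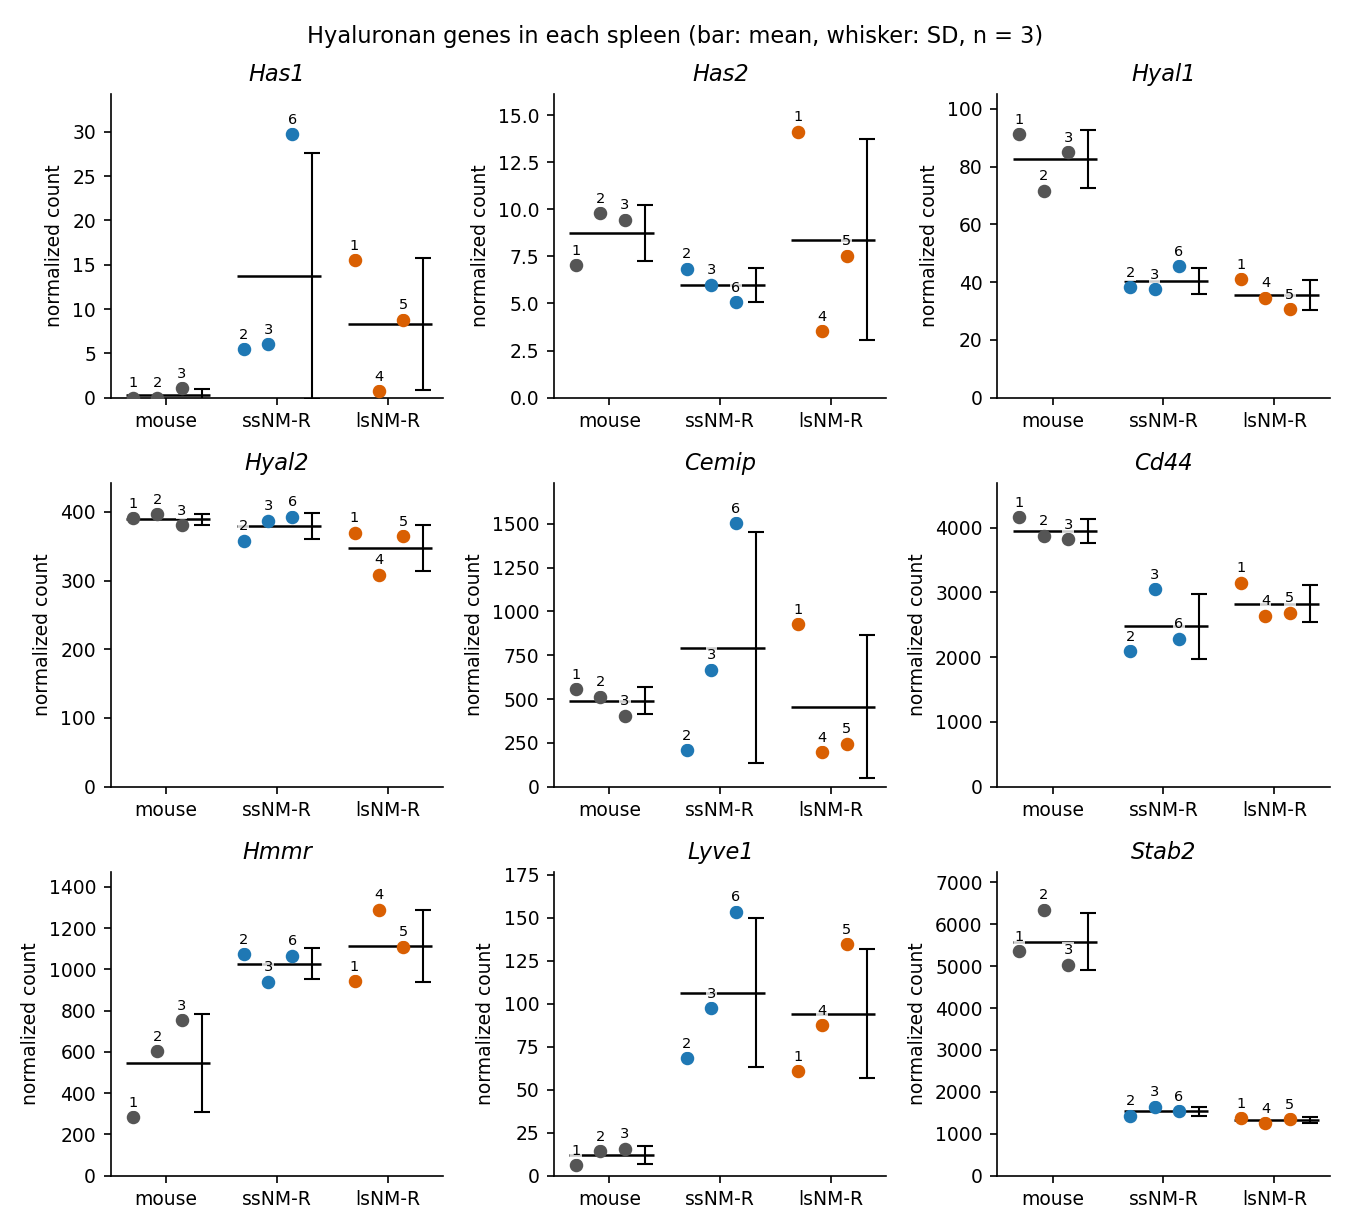
Normalised count (y axis, linear, from 0) of the 9 listed hyaluronan genes in each of the 9 spleens, numbered by animal, with the mean (bar) and SD (whisker, n = 3, cut off at 0) of mice, ssNM-Rs and lsNM-Rs. Lyve1 and Hmmr are higher in all 6 NM-R spleens than in the 3 mice and Hyal1, Cd44 and Stab2 lower, while Cemip runs from 196 to 1505 among NM-Rs on both sides of the mice.

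Levels of different genes can be set side by side for mice alone, where the merged exons of the mm9 annotation give a length. Per kilobase of exon, Stab2 (637 ± 77.8 normalised counts) and Cd44 (577 ± 26.6) stood at the top, with ranges that overlapped. Hyal2 followed at 206 ± 4.32, Hmmr at 98.0 ± 43.0 and Hyal1 at 21.7 ± 2.62, each with a range that did not overlap its neighbours in this order. The length of Hyal1 includes the 52.3% of its exon bases that also belong to Hyal3 or Nat6, so its place is uncertain. Lyve1 came next at 4.59 ± 2.00 per kilobase, from 2.31 to 6.03, and Has2 was at 2.06 ± 0.355, from 1.66 to 2.31, so that their ranges almost touched. Has1 was lowest at 0.167 ± 0.290 per kilobase. In the mouse spleen, the receptors Stab2 and Cd44 thus ranked highest per length and the synthases lowest. The symbol Cemip is not in the mm9 annotation used here, and no length or position is given for it. NM-R gene lengths were not used here, so no such order is given for NM-Rs.

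The synthases had few reads, with at most 47 of Has1 and 12 of Has2 in a library. Has1 lies at chr17:17980292-17992152 on the minus strand of mm9 and encodes a synthase of the plasma membrane. Mice 1 and 2 had 0 reads of it and mouse 3 had 1 read, a normalised count of 1.05. The ssNM-Rs 2, 3 and 6 had 5.47, 6.01 and 29.7 normalised counts, and the lsNM-Rs 1, 4 and 5 had 15.5, 0.705 and 8.78. Thus 5 of 6 NM-R spleens were above all mice, and lsNM-R 4, with 1 read, fell within the mouse range. In all, 81 reads in NM-Rs stood against 1 read in mice, a rate ratio of 34.7 with an exact 95% interval of 6.05 to 1387 that covers counting error only. Of these reads 47 came from ssNM-R 6, and without it the ratio was 19.1 (3.20 to 775), while the 1 mouse read came from mouse 3, without which no ratio can be given. The fitted log2 difference, which at such counts depends on the value added before taking logs, was 2.75 (SE 0.76, limma, adjusted p = 0.00724). With ssNM-Rs alone it was 3.14 (adjusted p = 0.00816) and with lsNM-Rs alone 2.36 (adjusted p = 0.0321). The lsNM-R call was lost when 5 in place of 1 was added before taking logs (adjusted p = 0.0736), and when mouse 1 (0.0901), mouse 2 (0.0874), lsNM-R 1 (0.124) or lsNM-R 5 (0.0957) was left out.

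Has2 (chr15:56497182-56526094, minus strand, mm9) is the synthase most tied to embryonic and stromal hyaluronan, and 4.30% of its exon bases lie opposite its antisense transcript Has2as. It had 7.02, 9.78 and 9.44 normalised counts in mice 1, 2 and 3, then 6.84, 6.01 and 5.06 in ssNM-Rs 2, 3 and 6, and 14.1, 3.53 and 7.52 in lsNM-Rs 1, 4 and 5. The groups overlapped, with the highest and the lowest value both in lsNM-Rs. These are 25 reads in all mice and 44 in all NM-Rs. The log2 difference between NM-R and mouse was -0.35 with a 95% interval of -1.19 to 0.49 (limma, adjusted p = 0.414), so that differences within this interval are not told apart from 0 by these 9 spleens.

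The enzymes that supply the sugar precursors did not move one way. Of the 13 genes listed for precursor supply, 9 are in the table, and 4 were higher, 2 lower and 3 not called in NM-Rs against mice. Over all genes, 39.7% were called higher and 38.8% lower. The sharpest contrast was between the pair of isoenzymes that open the hexosamine pathway. Gfpt1 had 1508, 1447 and 1369 normalised counts in mice, 197, 206 and 138 in ssNM-Rs and 242, 255 and 285 in lsNM-Rs. Its mean in mice was 6.54-fold that in NM-Rs (log2 difference -2.74, limma, adjusted p = 5.70e-08), with no overlap. Gfpt2 had 35.1, 31.5 and 32.5 in mice, 413, 506 and 555 in ssNM-Rs and 395, 415 and 159 in lsNM-Rs, a rise of 12.3-fold (log2 difference 3.49, adjusted p = 1.55e-06). Ugdh, which makes UDP-glucuronic acid, was lower in NM-Rs (log2 difference -0.51, adjusted p = 0.000975). Hexokinase Hk1 (0.85), the phosphoglucomutase Pgm1 (0.99) and the nucleotide-sugar transporter Slc35d1 (0.78) were higher. Pgm3, Hk2 and Pgm2 were not called, at log2 differences of -0.02, 0.22 and -0.20, but Hk2 was called higher without ssNM-R 6 (0.37, adjusted p = 0.00961) and Pgm2 was called lower under 4 alternatives, among them the same total per spleen (-0.25, adjusted p = 0.0212). Ugp2, Gnpnat1, Uap1 and Gpi1 are not listed.

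Of the hyaluronidases, Hyal1 was lower in NM-Rs, while Hyal2 did not pass the test. Hyal1, the acid hyaluronidase of lysosomes, lies at chr9:107479258-107485174 on the plus strand of mm9. It had 91.3, 71.7 and 84.9 normalised counts in mice 1, 2 and 3. The ssNM-Rs 2, 3 and 6 had 38.3, 37.5 and 45.5 and the lsNM-Rs 1, 4 and 5 had 41.0, 34.6 and 30.7, so that all NM-Rs were below all mice. The mean of mice was 82.7 ± 9.98, that of ssNM-Rs 40.4 ± 4.40 and that of lsNM-Rs 35.4 ± 5.17. The mouse mean was 2.18-fold that of NM-Rs (log2 difference -1.11, SE 0.18, limma, adjusted p = 0.000288). Against mice, ssNM-Rs gave -1.01 (adjusted p = 0.00151) and lsNM-Rs -1.20 (adjusted p = 0.000503), 2 comparisons that share the mice. In mm9, 52.3% of the exon bases of Hyal1 also belong to Hyal3 or Nat6 on the same strand. In the RefSeq annotation of H.glaber_assembly_v1.0, not the build the authors used, the spans of Hyal1 and Hyal3 do not overlap. How the counting treated reads in shared bases is not stated, so the Hyal1 level and its comparison between species are uncertain.

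Hyal2, which is anchored to the cell surface by a lipid, lies beside it at chr9:107471448-107475107, with 0% of its exon bases shared. It had 391, 397 and 381 normalised counts in mice, 358, 387 and 393 in ssNM-Rs and 370, 309 and 364 in lsNM-Rs. The groups overlapped, and lsNM-R 4 was lowest. The log2 difference between NM-R and mouse was -0.10 with a 95% interval of -0.32 to 0.11 (limma, adjusted p = 0.339), and it turned to 0.015 under quantile normalisation. Hyal2 was also steady among animals. Over the 6 NM-Rs the SD of its log2 values was 0.124, against a median of 0.204 among the 9186 genes with a mean of at least 100 normalised counts.

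Hyal3, the third gene of this cluster, was listed among the other hyaluronidases and depolymerases and is the gene of that list with the larger difference. It had 11.0, 9.78 and 15.7 normalised counts in mice, 640, 542 and 502 in ssNM-Rs and 613, 519.7 and 470.3 in lsNM-Rs. The NM-R mean was 45.0-fold that of mice (log2 difference 5.40, SE 0.17, limma, adjusted p = 3.89e-09). In mm9, Hyal3 shares 8.16% of its exon bases with Hyal1 and Nat6. In the RefSeq annotation of H.glaber_assembly_v1.0, which is not the build the authors used, the span of Naa80 (Nat6) overlaps that of Hyal3. Neither Naa80 nor Nat6, names of the same acetyltransferase, is listed in the table, and the part of shared bases in the Hyal3 result was not tested. Cemip2, a membrane hyaluronidase, was 2.06-fold higher in NM-Rs (log2 difference 1.03, adjusted p = 1.64e-05). Hyal4, Hyal5, Hyal6, Spam1 and the older symbol Tmem2 are not listed. Gusb, a lysosomal exoglycosidase that takes glucuronic acid off the fragments, was lower in NM-Rs, at a log2 difference of -0.93 (limma, adjusted p = 2.42e-05).

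Cemip, which binds hyaluronan and leads to its depolymerisation outside the cell, differed widely between NM-R animals. Mice 1, 2 and 3 had 556, 513 and 405 normalised counts. The ssNM-Rs 2, 3 and 6 had 206, 667 and 1505, and the lsNM-Rs 1, 4 and 5 had 928, 196 and 245. Among NM-Rs, ssNM-R 3, ssNM-R 6 and lsNM-R 1 were above all mice and the other three were below all mice, so both cohorts had spleens on each side. The highest NM-R value was 7.68 times the lowest, against 1.37 times in mice. The SD of log2 values over the 6 NM-Rs was 1.25, and 0.283% of the 9186 genes with a mean of at least 100 had a larger one. The mice averaged 491 ± 77.9, the ssNM-Rs 793 ± 659 and the lsNM-Rs 456 ± 409. The log2 difference between NM-R and mouse was -0.09 with a 95% interval of -1.46 to 1.29 (limma, adjusted p = 0.902), and its sign turned under upper quartile (0.0079) and quantile scaling (0.022), edgeR (0.30) and DESeq2 (0.29).

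The NM-R spleens with high Cemip were also those with the higher sums of mesothelial markers, the genes of the cell layer that covers the spleen. Over the 5 of 6 marker genes in the table, the sum was 1414 in ssNM-R 3, 2521 in ssNM-R 6 and 1636 in lsNM-R 1. It was 782 in ssNM-R 2, 1262 in lsNM-R 4 and 1011 in lsNM-R 5, and 575 to 829 in mice. Of these genes, Msln was higher in NM-Rs (8.10-fold, limma, adjusted p = 8.23e-05) and the other four were not called. None of the 5 was at 0 in all spleens of a group. The highest Has1 values, in ssNM-R 6 and lsNM-R 1, fell in spleens of this kind too, and ssNM-R 6 had the highest liver sum as well. However, ssNM-R 3 had 6.01 normalised counts of Has1, below the 8.78 of lsNM-R 5, where the mesothelial sum and Cemip were lower. The part of mesothelial and liver RNA in the Cemip and Has1 values was not tested. The genes whose deviations from the group means over the 9 spleens were most like those of Cemip were Cgnl1 (Pearson r = 0.987), Chst11 (0.987) and Dpp4 (0.986), among 9186 genes compared.

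**Figure D2:**
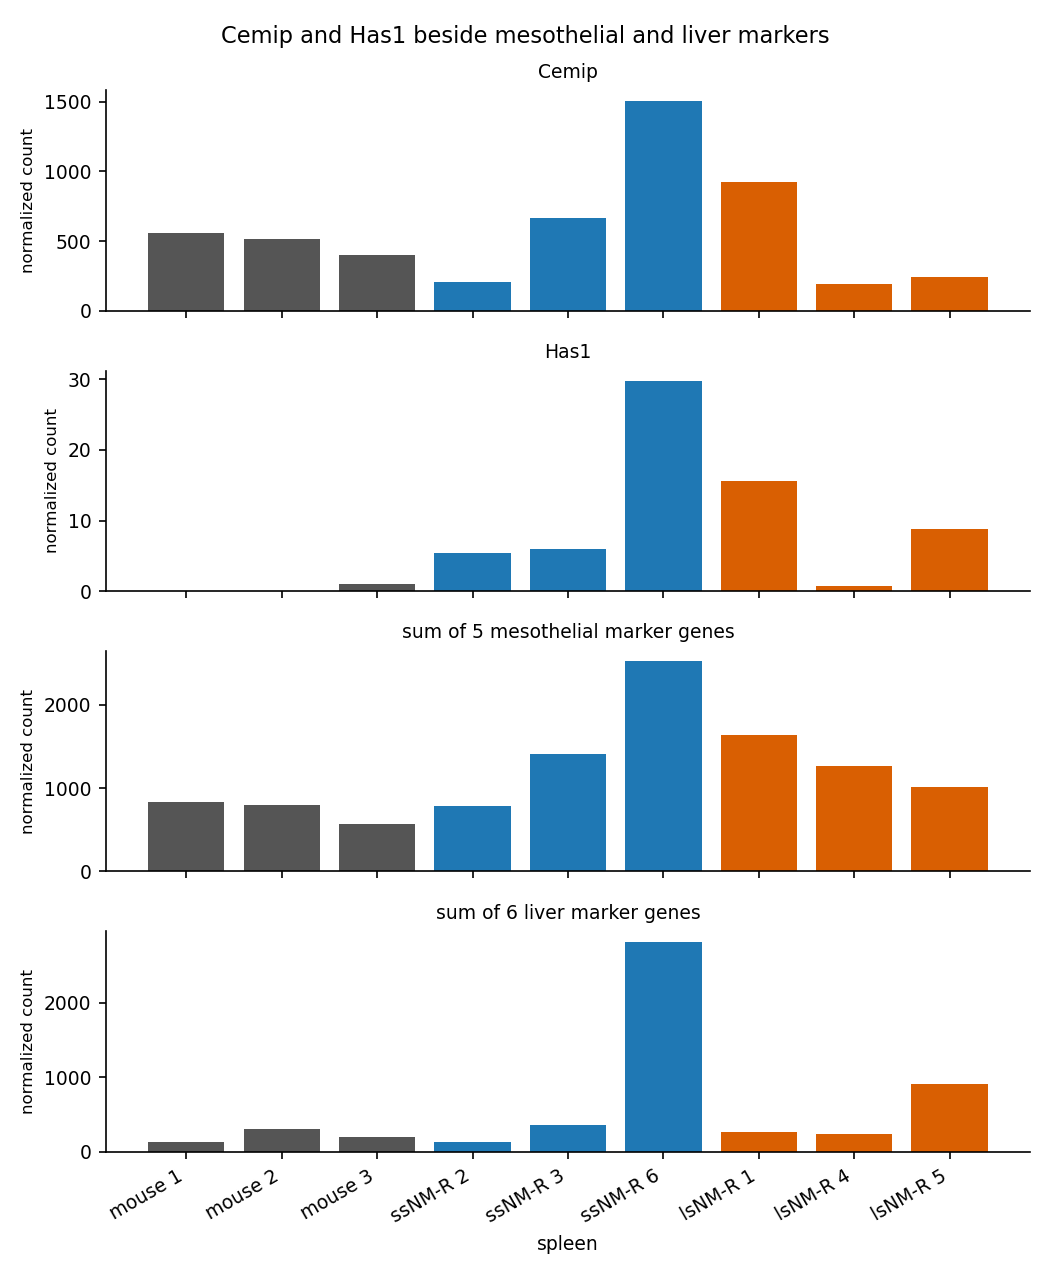
Normalised counts (y axes, linear, from 0) of Cemip, Has1, the sum of 5 mesothelial marker genes and the sum of 6 liver marker genes, 1 bar per spleen (grey mice, blue ssNM-Rs, orange lsNM-Rs). Cemip is highest in ssNM-R 6, lsNM-R 1 and ssNM-R 3, which also have the 3 highest mesothelial sums, while the liver sum stands out in ssNM-R 6 (2818) and lsNM-R 5 (908).

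Cd44, the main hyaluronan receptor of leukocytes, was lower in NM-Rs. The gene lies at chr2:102651298-102741822 on the minus strand of mm9. It had 4159, 3875 and 3819 normalised counts in mice 1, 2 and 3, then 2095, 3048 and 2286 in ssNM-Rs 2, 3 and 6 and 3151, 2641 and 2688 in lsNM-Rs 1, 4 and 5. All NM-Rs were below all mice, and the cohorts overlapped each other. The mouse mean of 3951 ± 182 was 1.49-fold that of NM-Rs (log2 difference -0.59, SE 0.12, limma, adjusted p = 0.00138). ssNM-Rs averaged 2476 ± 504 (log2 difference -0.69, adjusted p = 0.00134) and lsNM-Rs 2827 ± 282 (log2 difference -0.49, adjusted p = 0.0105). The genes most like Cd44 in their deviations from the group means were Gngt2 (r = 0.989), Spi1 (0.988), a transcription factor of myeloid and B cells, and Parvg (0.980). The lymphocyte markers moved in the same direction as Cd44. All 7 B cell and all 7 T cell markers were called lower in NM-Rs, beside 38.8% of all genes. T cell sums were 9277 to 10036 normalised counts in mice and 3075 to 5816 in NM-Rs. Granulocyte marker sums moved the other way, from 4404 to 5949 in mice to 13809 to 18120 in NM-Rs over 6 genes, and macrophage marker sums were also higher in all NM-Rs. Single genes of these 2 lists were mixed. Of the 6 granulocyte genes 4 were called higher and 2 lower, and of the 9 macrophage genes 4 higher, 4 lower and 1 not. The shares over all genes were 39.7% higher and 38.8% lower. The part of these cells in the Cd44 result was not tested.

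Of the 10 genes listed as Cd44 linkers, sheddases and other ligands, 8 are in the table. Of these 3 were higher, 2 lower and 3 not called, beside 39.7% of all genes higher and 38.8% lower. Msn (moesin), which ties the tail of Cd44 to actin, was lower in NM-Rs at a log2 difference of -0.79 (limma, adjusted p = 2.96e-05), and Nf2 (merlin), which competes for that place, was higher at 0.59 (adjusted p = 0.000107). Among proteases that shed Cd44, Adam10 was higher at 1.31 (adjusted p = 4.32e-06) and Adam17 lower at -0.71 (adjusted p = 0.000938). Mmp14 was higher at 0.50 (adjusted p = 0.0169), a call lost without mouse 2 (0.0522) or mouse 3 (0.0694). Spp1 (osteopontin), Srgn (serglycin) and Itga4 were not called, at 0.90, 0.28 and -0.10, but Srgn was called higher under 3 alternatives (adjusted p = 0.0283 to 0.0488). Ezr and Rdx are not listed.

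Hmmr, a hyaluronan-binding protein that also sits on the mitotic spindle, was higher in NM-Rs. The gene lies at chr11:40514890-40546939 on the minus strand of mm9. Mice 1, 2 and 3 had 284, 602 and 753 normalised counts. The ssNM-Rs 2, 3 and 6 had 1073, 941 and 1067 and the lsNM-Rs 1, 4 and 5 had 943, 1290.4 and 1110, all above the mice. The mice were the spread-out group here, with a highest value 2.65 times the lowest against 1.37 times among NM-Rs. The NM-R mean was 1.96-fold that of mice (log2 difference 1.07, SE 0.26, limma, adjusted p = 0.00335), with 1.02 for ssNM-Rs (adjusted p = 0.0106) and 1.13 for lsNM-Rs (adjusted p = 0.00629). Without mouse 1, the lowest spleen, the difference for all NM-Rs was 0.66 and remained called. Markers of cycling cells, taken as a sum, were also higher in all NM-Rs than in mice. Of these 10 genes 6 are in the table, and their sum was 4247, 7152 and 8978 normalised counts in mice 1, 2 and 3, the same order as Hmmr, and 20842 to 27444 in NM-Rs, where the order was not that of Hmmr. Markers of the erythroid lineage were in the same order in mice, with sums of 14944, 26001 and 32192 normalised counts over 6 genes, and reached 71774 to 109582 in NM-Rs. Top2a, Tpx2, Bub1, Plk1 and Cenpe were called higher in NM-Rs, with log2 differences of 1.37 to 2.84, and Aurka was not called at 0.44 (adjusted p = 0.0999). The share of all genes called higher was 39.7%. The part of dividing and erythroid cells in the Hmmr result was not tested. The genes most like Hmmr in their deviations were Cdca3 (r = 0.992), which is known from mitotic entry, Mns1 (0.989) and Aunip (0.987).

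**Figure D3:**
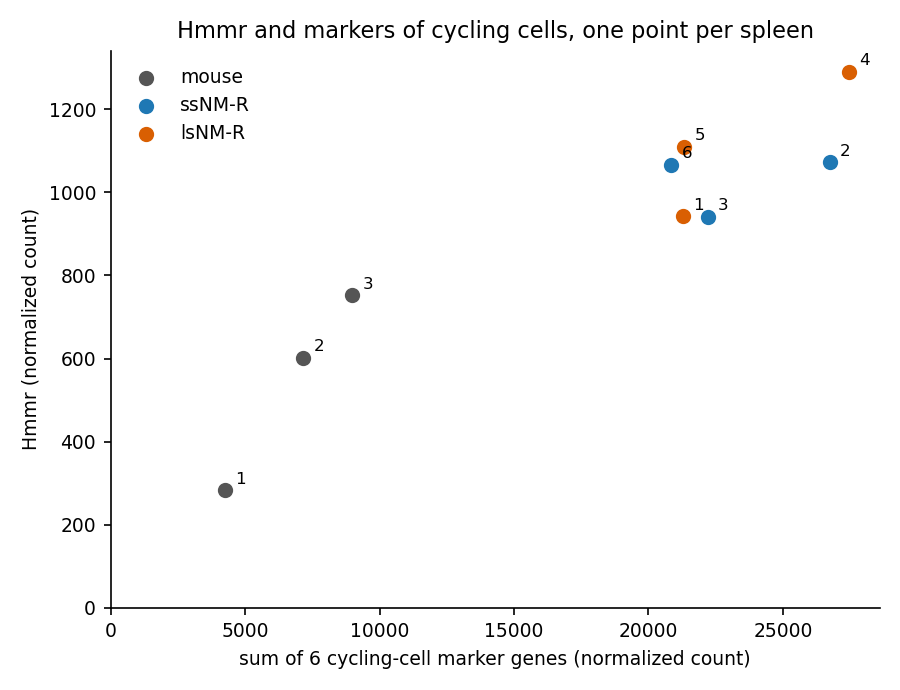
Hmmr (y axis, normalised count) against the sum of 6 markers of cycling cells (x axis, normalised count), 1 point per spleen, numbered by animal and coloured by group, both axes linear from 0. The 3 mice lie at sums of 4247 to 8978 and the 6 NM-Rs at 20842 to 27444, with Hmmr higher in all NM-Rs, and ssNM-Rs and lsNM-Rs intermixed.

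Lyve1, the hyaluronan receptor known from lymphatic and liver sinusoidal endothelium and from some macrophages, was low in mouse spleens and higher in NM-Rs. The gene lies at chr7:117994121-118006467 on the minus strand of mm9. It had 6.02, 14.1 and 15.7 normalised counts in mice 1, 2 and 3, which are 34 reads in all. The ssNM-Rs 2, 3 and 6 had 68.4, 97.6 and 153.6 and the lsNM-Rs 1, 4 and 5 had 60.7, 87.4 and 134.8. All NM-Rs were above all mice, and both cohorts covered much the same range. The NM-R mean of 100.4 ± 36.8 was 8.40-fold the mouse mean of 12.0 ± 5.21 (log2 difference 2.99, SE 0.38, limma, adjusted p = 4.07e-05), with 3.07 for ssNM-Rs (adjusted p = 0.000108) and 2.90 for lsNM-Rs (adjusted p = 0.000165). The highest values were in ssNM-R 6 and lsNM-R 5, the spleens with the highest liver sums. Without these 2 spleens the log2 difference was 2.69 (adjusted p = 0.000218), a comparison chosen after seeing the data, and the 4 remaining NM-R spleens had liver sums of 124 to 362 normalised counts, against 135 to 308 in mice. The part of liver RNA in the Lyve1 result was not tested.

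Stab2, the scavenger receptor with which sinusoidal endothelium of spleen and liver clears hyaluronan, was the member with the smallest p. The gene lies at chr10:86303943-86470770 on the minus strand of mm9. Mice 1, 2 and 3 had 5360.3, 6343 and 5033 normalised counts. The ssNM-Rs 2, 3 and 6 had 1426, 1644 and 1531 and the lsNM-Rs 1, 4 and 5 had 1370.02, 1247 and 1354. All NM-Rs were below all mice by a wide margin, and the 3 lsNM-Rs were below the 3 ssNM-Rs. The mouse mean of 5578.5 ± 682 was 3.90-fold that of NM-Rs (log2 difference -1.96, SE 0.09, limma, adjusted p = 4.83e-08), with -1.86 for ssNM-Rs (adjusted p = 2.55e-07) and -2.07 for lsNM-Rs (adjusted p = 1.35e-07). The genes most like Stab2 in their deviations were Gpbar1 (r = 0.948), Rnf121 (0.933) and Znf25 (0.918).

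The other endothelial genes did not all follow Stab2. Of 14 markers of sinusoidal and lymphatic endothelium 11 are in the table. Of these 1 was called higher in NM-Rs, 5 lower and 5 not, beside 39.7% of all genes higher and 38.8% lower. The 11 genes summed to 13559 to 18659 normalised counts in mice and 12784 to 14776 in NM-Rs. Mrc1, which was not called, was the largest part of this sum in each spleen. It had 3878 to 6089 in mice and 5356 to 7376 in NM-Rs, so the sum says little about the genes with lower counts. Cdh5 (VE-cadherin) differed by -0.05 on the log2 scale with a 95% interval of -0.30 to 0.21. Clec4g at -2.85, Mmrn1 at -2.86, Prox1 at -1.28, Pecam1 at -2.00 and Vwf at -1.99 were lower. Stab1, the paralogue of Stab2, was higher, with 1635, 1444 and 1154 normalised counts in mice, 1913, 3239.8 and 3361 in ssNM-Rs and 2411, 2465 and 1882 in lsNM-Rs (log2 difference 0.83, limma, adjusted p = 0.0027). Stab1 is also made by macrophages, whose 9 listed markers summed to 46239 to 56074 normalised counts in mice and 56362 to 83912 in NM-Rs, with 4 called higher, 4 lower and 1 not. The part of endothelial and macrophage content in the Lyve1, Stab1 and Stab2 results was not tested.

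Among the 6 other receptors, Stab1 included, 3 were higher, 2 lower and 1 not called, beside 39.7% of all genes higher and 38.8% lower. Layn (layilin) was higher at a log2 difference of 1.18 (limma, adjusted p = 0.00015), and so was Tlr2, an innate sensor of microbial lipoproteins, at 0.70 (adjusted p = 0.0195), a call lost without mouse 2 (0.0663) or mouse 3 (0.0669). Tlr4 was not called at -0.25, except without mouse 3 (adjusted p = 0.0464). Icam1 was lower at -2.02 (adjusted p = 0.00137), with 2098, 2106 and 2114 normalised counts in mice and 256 to 1307 in NM-Rs, so that mice lay close together and NM-Rs far apart. Susd5, which carries a hyaluronan-binding link domain, was lower at -2.92 on few reads, with 9.78 to 19.1 normalised counts in mice and 0 to 3.14 in NM-Rs.

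Of the 19 genes listed by name as hyaluronan-binding proteins, link proteins and stabilisers, not all of them matrix proteins, 13 are in the table. Of these, 5 were higher, 3 lower and 5 not called in NM-Rs, beside 39.7% of all genes higher and 38.8% lower. Tnfaip6, which moves heavy chains of the inter-alpha-trypsin inhibitor onto hyaluronan, had the largest difference of the 40 pathway genes. It had 11.0, 7.61 and 3.15 normalised counts in mice, 744, 962 and 907 in ssNM-Rs and 1056, 1266 and 615 in lsNM-Rs. The NM-R mean was 127-fold that of mice (log2 difference 6.90, SE 0.33, limma, adjusted p = 4.77e-08), which rests on 21 mouse reads. Itih5, which encodes such a heavy chain, went the other way with 545, 525 and 433 in mice and 6.84 to 38.1 in NM-Rs, the mouse mean being 22.2-fold that of NM-Rs (log2 difference -4.61, adjusted p = 6.14e-06). Habp4 was lower at -2.37 (adjusted p = 1.16e-06). The link proteins were all low, with no value over 17.7 normalised counts, and Hapln1 (2.72) and Hapln2 (2.18) were called higher and Hapln3 (-2.76) lower. Itih4 (2.15) and Habp2 (1.78) were called higher, but the Itih4 call was lost without mouse 3 (adjusted p = 0.0539). The Habp2 call was lost without mouse 1 (0.0692) or mouse 3 (0.0694) or with 5 in place of 1 added before taking logs (0.0521). Habp2 had 1 read in mice and 36 in NM-Rs, of which 19 were in ssNM-R 6 and 10 in lsNM-R 5. Both genes were highest in ssNM-R 6 (208.5 normalised counts of Itih4 and 12.0 of Habp2), and the part of liver RNA in their calls was not tested. Itih1, Itih2, Itih3, Ambp and C1qbp were not called, and the 4 of them known as liver products (all but C1qbp) were each highest among NM-Rs in ssNM-R 6, the spleen with the highest liver sum. Without ssNM-R 6, Itih3 was called lower in NM-Rs (log2 difference -2.37, adjusted p = 0.00639), as it was without lsNM-R 5 (adjusted p = 0.0225). Ambp was called higher by edgeR (adjusted p = 0.0468), and C1qbp under upper quartile scaling (0.0281) and without lsNM-R 1 (0.0138). Vcan, Acan, Ncan, Bcan, Hapln4 and Ptx3 are not listed.

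Over all 40 pathway genes in the table, of 58 listed, 17 were called higher, 11 lower and 12 not. Over all genes, 78.5% were called (39.7% higher and 38.8% lower). No test of the pathway genes, or of any single list of them, against the other genes was made. Their median log2 difference was 0.54, beside 0.0097 for all genes.

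**Figure D4:**
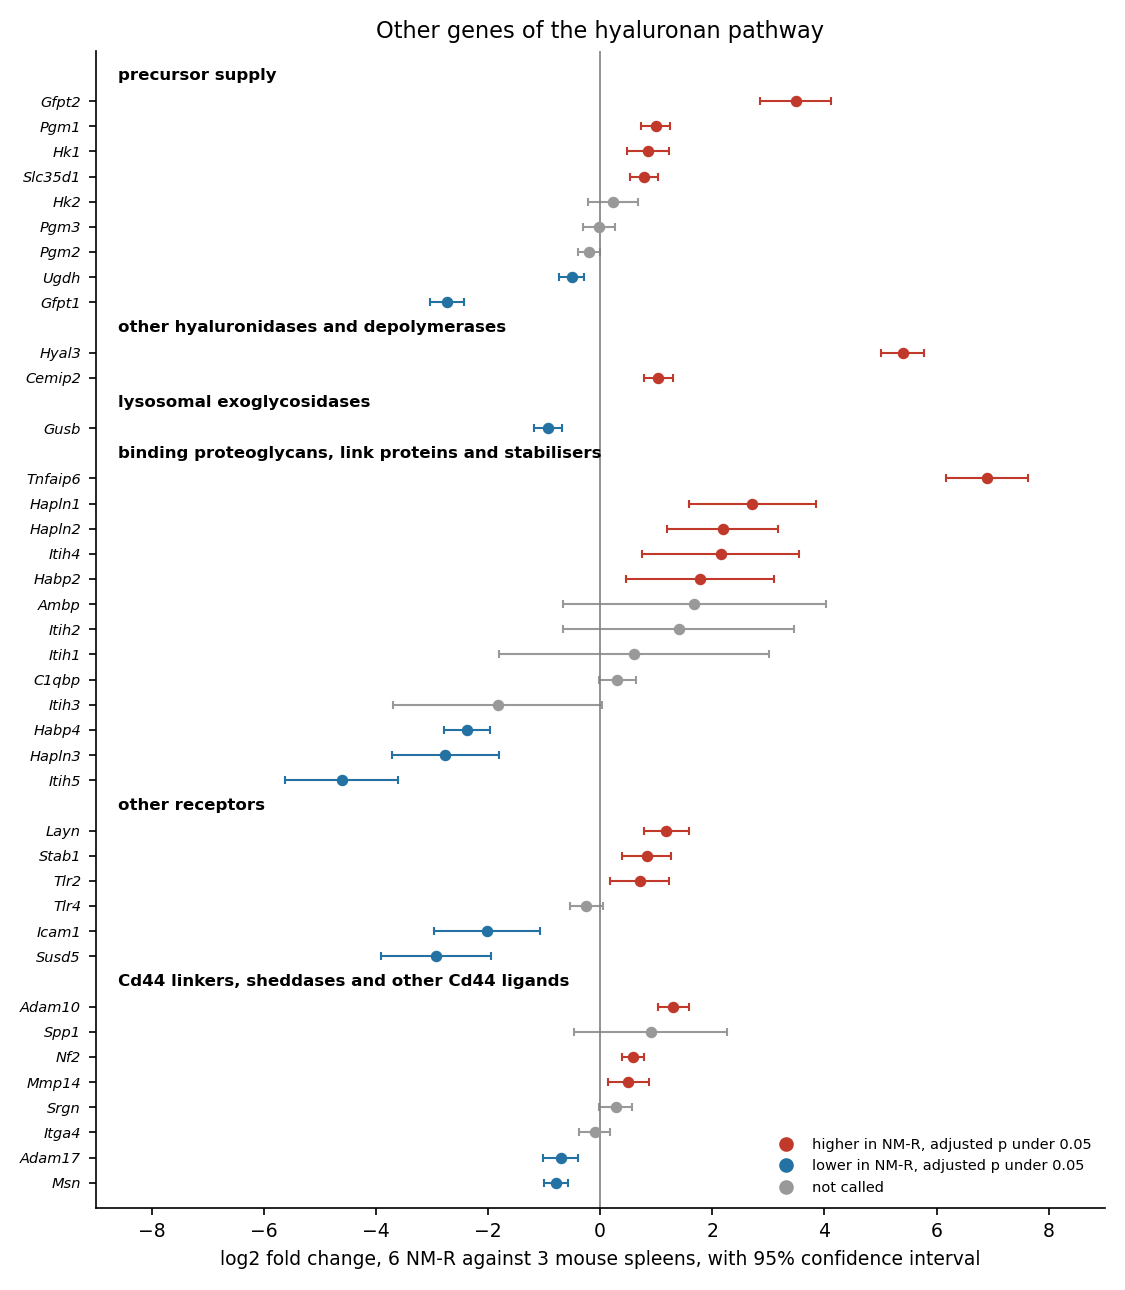
Log2 difference between 6 NM-R and 3 mouse spleens (x axis, with 95% confidence interval) for 39 other genes of hyaluronan metabolism and binding, grouped by role; red is called higher, blue called lower and grey not called at an adjusted p under 0.05. Tnfaip6 (6.90) and Hyal3 (5.40) lie farthest to the right and Itih5 (-4.61) farthest to the left, and each group of more than 2 genes holds differences in both directions.

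ssNM-Rs and lsNM-Rs were each compared with the same 3 mice, and the values of each member in both comparisons stand above. Between ssNM-R and mouse, 3 members were called higher and 3 lower, against 75.5% of all genes called (38.0% higher and 37.5% lower). Between lsNM-R and mouse the counts were also 3 and 3, against 75.0% (38.1% higher and 37.0% lower). Between the cohorts themselves, limma called 0 of the 9 members and 0% of all genes. At an unadjusted p under 0.05 there were 0 members and 8.79% of all genes, and neither edgeR nor DESeq2 called a member, although DESeq2 called 41 genes higher and 16 lower in lsNM-Rs over the whole table. The 95% intervals show what this leaves possible, given a spread estimated over all 3 groups, mice included. That spread can differ from the one among NM-Rs. The SD of log2 values was 0.735 in the 3 mice and 0.169 over the 6 NM-Rs for Hmmr. For Cemip it was 0.237 in mice and 1.25 over the NM-Rs. For Stab2 the log2 difference of lsNM-R to ssNM-R was -0.21 (interval -0.45 to 0.03, unadjusted p = 0.0815, limma, adjusted p = 0.603), and it was the 1 member of 9 whose cohort ranges did not overlap, against 13.1% of all genes. For Hyal2 the difference was -0.13 (-0.38 to 0.12), for Cd44 0.21 (-0.11 to 0.52) and for Hyal1 -0.19 (-0.66 to 0.28). Hmmr at 0.11 (-0.56 to 0.78) and Lyve1 at -0.17 (-1.14 to 0.80) had wider intervals. For Has2 it was 0.27 (-0.70 to 1.24), and those of Has1, -0.78 (-2.74 to 1.18), and Cemip, -0.74 (-2.33 to 0.85), allow more than 4-fold lower levels in lsNM-Rs. Among the 40 pathway genes 0 were called between the cohorts by limma, edgeR or DESeq2, and 3 had an unadjusted p under 0.05 in limma. One of them was Gfpt1, chosen for mention after its values were seen, with 197, 206 and 138 normalised counts in ssNM-Rs and 242, 255 and 285 in lsNM-Rs (log2 difference 0.55, limma, adjusted p = 0.442).

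**Figure D5:**
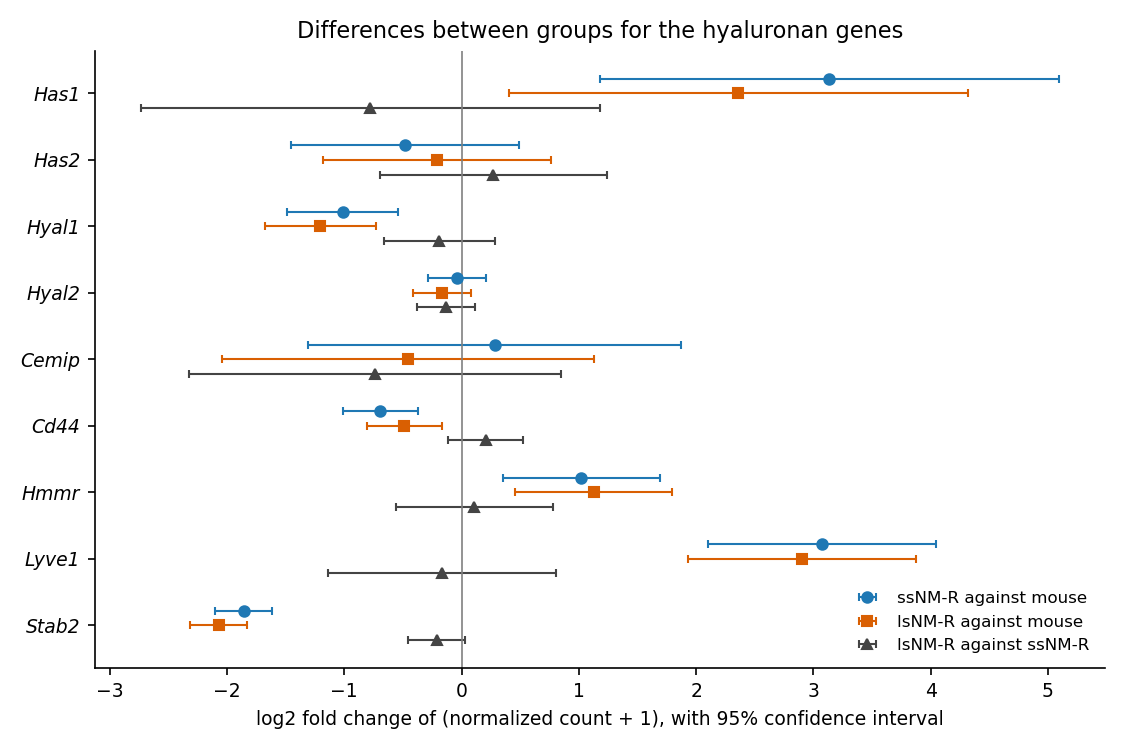
Log2 differences with 95% confidence intervals (x axis) for the 9 listed hyaluronan genes, for ssNM-R against mouse (blue circles), lsNM-R against mouse (orange squares) and lsNM-R against ssNM-R (grey triangles). Blue and orange intervals of Has1, Hyal1, Cd44, Hmmr, Lyve1 and Stab2 lie on 1 side of 0, and all grey intervals include 0.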

How the data were processed

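The 9 libraries hold spleen RNA, 3 of each group, and the labels' organism and spleen size define the groups. The methods name total RNA libraries and, like the series' design text, a NovaSeq, while the sample labels name mRNA libraries and a HiSeq. According to the methods the authors aligned reads with STAR (2.5.3a in the processing notes) to mm9 or hetGla2, counted them with htseq-count (HTSeq 0.10.0), named NM-R genes after mouse homologues with biomaRt and normalised with DESeq2. The deposited signal values are therefore gene counts scaled by each library's size factor. The strand setting is not given in the sources used here. Whole reads were recovered for 100% of the values of each library (tolerance 0.01 reads), between 7815326 and 18387599 per library, so that 3 reads correspond to 1.88 to 4.50 normalised counts.

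log2(normalised count + 1) was fitted in limma 3.58.1 (R 4.3.3) with 1 mean per group over all 9 spleens, a trended variance and 2-sided tests, adjusted over 12946 genes. The spread was estimated over the 3 groups together. The fit was tested on simulated data. Alternatives were tests of the recovered reads (edgeR 4.0.16 with TMM, DESeq2 1.42.0), other pseudocounts (0.5 and 5), a mean of at least 10 normalised counts, other scalings, no trend, the compared groups alone, each spleen left out in turn, and the replicate number as a block. Intervals of log2 differences come from the limma fit and the spread between spleens, while the interval of a read ratio and the floors cover counting error only. Within groups, pairs of libraries differed by more than sampling noise (chi-square per degree of freedom 6.20 to 43.2), so none was counted as a duplicate.

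The members, pathway lists and marker lists were chosen by name with earlier results of these data known. The genes named are the members, the pathway lists, the markers, and, for each member with a mean of at least 100 normalised counts, the 3 genes with the highest Pearson r of deviations from the group means over 9 spleens, given as a description. Positions and exon lengths are those of mouse genes in mm9. The marker lists were also counted in NM-Rs against mice, as higher, lower and not called, beside 39.7% of all genes higher and 38.8% lower. Granulocytes gave 4, 2 and 0, fibroblasts and reticular stroma 3, 3 and 3, the erythroid lineage 6, 0 and 0, the liver 2, 1 and 3, and the pancreas 2, 1 and 0. One gene of the pathway lists is counted but not reported here. No sequence is shown.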

Additional observations from a re-analysis of the deposited data

Results flagged for a closer look

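A spleen that stood apart was looked for among the 6 NM-R values of each of the 49 members and pathway genes in the table, by the gap of the highest or lowest value to its neighbour as a share of the range (Dixon's test at the 95% level). Of the 49 genes 5 were picked out. For normally distributed values, chance alone picks out about 1 in 20 groups. That rate need not hold for normalised counts on a linear scale, some of few reads. Of the 5 genes picked out, 4 were highest in ssNM-R 6, the spleen with the highest sum of liver genes (2818 normalised counts). These 4 values come from 1 library, so they need not be separate draws. Itih2 had 32.9 normalised counts in ssNM-R 6 and 0 to 6.90 in the other NM-Rs. Itih3 had 170.6 in ssNM-R 6 against 5.64 to 56.4, and Itih4 had 208.5 against 26.1 to 76.3. Ambp had 129.5 in ssNM-R 6 against 2.73 to 41.4. The part of liver RNA in these values was not tested. The other was Hapln3, with 6.01 normalised counts (4 reads) in ssNM-R 3 and 0 to 1.37 in the other NM-Rs. No member was picked out.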

How the results depend on the processing

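Over 92 results, 1877 values were recomputed. Calls of Hyal1, Cd44, Hmmr, Lyve1 and Stab2 held in each comparison with mice under each alternative run, and the Has1 call of all NM-Rs and of ssNM-Rs held where Has1 was tested. Has1 was removed by the minimum of 10 normalised counts. For lsNM-Rs, Has1 missed the threshold under 6 of 20 alternatives, which include omitting ssNM-R 6 and lsNM-R 5 (log2 difference 2.06, adjusted p = 0.0683), an alternative added after seeing the data like the library depth class as a term. DESeq2 called 41 genes higher and 16 lower in lsNM-Rs than in ssNM-Rs where limma and edgeR called 0, and the cause was not tested. Replicate numbers did not pair the spleens (correlation of deviations -0.0045 to 0.010), and a replicate block gave 5149 genes higher and 5036 lower in NM-Rs, against 5134 and 5024, and changed the call of 0 members and pathway genes. Over the genes and alternatives, 14 calls were lost and 16 gained, the latter in 7 pathway genes (Ambp, C1qbp, Hk2, Itih3, Pgm2, Srgn and Tlr4). Upper quartile scaling moved the median of all genes to 0.103.

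The signs that turned belong to genes that were not called, and the causes were not tested. For NM-R against mouse these were Hyal2 under quantile normalisation (0.0146), Cemip under upper quartile (0.00786), quantile (0.0216), edgeR (0.303) and DESeq2 (0.292), Pgm3 under upper quartile (0.0771), quantile (0.123), edgeR (0.00509) and omitting ssNM-R 6 and lsNM-R 5 (0.00821), and Itih1 under that omission (-0.469). For ssNM-R against mouse they were Hyal2 under upper quartile (0.0596) and quantile (0.0925) and Cemip under that omission (-0.391), which also turned Cemip in lsNM-R against ssNM-R (0.201).

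Leaving out each spleen gave these ranges where a sign turned. For NM-R against mouse they were -0.433 to 0.292 (Cemip), -0.0872 to 0.0407 (Pgm3) and -0.0215 to 1.24 (Itih1). For ssNM-R against mouse they were -0.0642 to 0.00245 (Hyal2) and -0.391 to 1.04 (Cemip), and for lsNM-R against mouse -0.638 to 0.232 (Has2). For lsNM-R against ssNM-R they were -1.45 to 0.188 (Has1), -0.157 to 0.713 (Has2), -0.00280 to 0.223 (Hmmr) and -0.463 to 0.130 (Lyve1).

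Among the members, depth limits the synthases most, with at most 47 reads of Has1 and 12 of Has2 in a library.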
